A study of Mus musculus with 12 samples.

Results

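The genes described here encode the basement membrane, the interstitial matrix and the integrins of the caudal region of the mouse embryo at E10.5 (embryonic day). They are 36 genes named by symbol in the table of 53342 genes, all of them found there: 8 laminin chains, 4 proteins that link the basement membrane network, 4 type IV collagen chains, 5 fibrillar collagen chains, 4 genes for fibronectin and matricellular proteins, 3 genes of the Fraser complex, 7 integrin subunits and dystroglycan. The study compared embryos whose neural tube does not close with wild-type embryos. RNA came from 3 libraries per genotype: beta-catenin cKO, Emg1 cKO, homozygous Vangl2 Lp/Lp, and wild type, and each library was made from a pool of 4 to 7 embryos. In a cKO (conditional knockout) a recombinase deletes the gene in the cells where it is active. The gene was Ctnnb1, which encodes beta-catenin, the transcriptional effector of WNT signals and a part of cell junctions, or Emg1, which encodes a methyltransferase needed to make the small ribosomal subunit. Lp (loop-tail) is a missense allele of the planar cell polarity gene Vangl2. The sources used here do not name the recombinase driver, the strain or the sex of the embryos, nor any allele that the wild-type embryos carry.

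A basement membrane is a sheet of matrix that lies under epithelia, around the neural tube and around somites and vessels. Laminins, each made of an alpha, a beta and a gamma chain, form its first network on the cell surface, type IV collagen forms a further one, and nidogens, perlecan and agrin bind them to each other. Integrins and dystroglycan hold cells to these networks, and integrins also bind the fibronectin matrix between the tissues. In mouse embryos fibronectin, laminins and integrins are needed for somite formation, for the shape of the axis and for the movements that close the neural tube.

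3 promoters are shown because they belong to the gene called in all the mutants (Agrn), to the gene with the most negative fold change among the 36 (Postn), and to a gene that shares its start region with its neighbour (Col4a2). They are 300 bases each on the coding strand, 250 before and 50 after the start, from RefSeq on GRCm38.p6; 25 of the 36 genes had an entry there. Agrn lies at chr4:156197439-156197738 on the minus strand, with capitals marking GGGCGG or its reverse complement CCGCCC, the letters of a GC box. Postn lies at chr3:54360857-54361156 on the plus strand, with capitals marking TATAAA, the letters of a TATA box. Col4a2 lies at chr8:11312555-11312854 on the plus strand, with capitals marking the 22 bases that the annotated gene shares with the start of Col4a1 on the other strand.
Agrn: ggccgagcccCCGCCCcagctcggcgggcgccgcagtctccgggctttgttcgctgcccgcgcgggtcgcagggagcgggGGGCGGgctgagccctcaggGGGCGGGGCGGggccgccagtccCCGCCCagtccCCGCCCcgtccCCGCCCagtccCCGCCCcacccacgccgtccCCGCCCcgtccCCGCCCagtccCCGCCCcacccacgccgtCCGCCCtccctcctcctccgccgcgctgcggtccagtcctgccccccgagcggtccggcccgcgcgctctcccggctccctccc
Postn: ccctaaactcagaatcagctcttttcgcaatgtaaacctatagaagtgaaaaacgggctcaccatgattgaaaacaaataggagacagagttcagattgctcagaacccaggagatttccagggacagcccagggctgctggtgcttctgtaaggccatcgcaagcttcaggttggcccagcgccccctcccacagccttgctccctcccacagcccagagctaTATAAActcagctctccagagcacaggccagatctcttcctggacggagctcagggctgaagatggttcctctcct
Col4a2: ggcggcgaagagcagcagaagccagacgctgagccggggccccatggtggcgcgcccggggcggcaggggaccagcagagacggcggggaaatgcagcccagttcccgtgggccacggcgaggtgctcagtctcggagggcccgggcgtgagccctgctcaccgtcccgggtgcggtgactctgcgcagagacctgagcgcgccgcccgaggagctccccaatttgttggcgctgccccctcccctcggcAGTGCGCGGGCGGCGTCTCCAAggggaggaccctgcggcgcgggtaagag
The Agrn window held 12 GC boxes, counted on both strands with overlaps allowed, and neither a CCAAT box nor a TATA box. The Postn window held 1 TATA box and neither of the others, and the Col4a2 window held 3 GC boxes and 1 CCAAT box. Among 32851 RefSeq promoters of this length, 35.7% held GGGCGG, 37.4% CCAAT and 13.6% TATAAA on either strand. These matches describe letters and not bound sites.

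Estimated reads per library, summed over genes, ran between 32863562 and 38560969 in the 9 mutant libraries and between 34266067 and 46464596 in the 3 wild-type libraries. Levels are given in TPM (transcript abundance scaled to gene length and library total). They lack the further scaling between libraries that the fold changes have. On log2(TPM + 1) the median change of all genes over wild type was 0.10 in beta-catenin cKO, 0.11 in Emg1 cKO and 0.08 in Vangl2 Lp/Lp. Levels, and statements on which libraries lie above or under wild type, carry that shift. Changes are log2 fold changes of edgeR's quasi-likelihood F test on the counts, fitted over all 12 libraries, and the threshold for a call was an adjusted p of 0.05 (Benjamini-Hochberg, over 17848 genes tested). Every adjusted p below is of that test unless another tool is named. The 3 comparisons with wild type share the same 3 wild-type libraries. The p-values measure the spread between pooled libraries, not between embryos. As these are bulk samples, fewer cells of a type and less RNA per cell cannot be told apart. In the check of the targeted genes, Emg1 fell by 0.81 ± 0.08 (log2, SE) in Emg1 cKO, with an adjusted p of 9.5e-06. Ctnnb1 had a log2 fold change of -0.09 ± 0.05 in beta-catenin cKO, with an adjusted p of 0.2, so its summed gene count gave no check of that label. Vangl2 had 0.17 ± 0.05 in Vangl2 Lp/Lp, with an adjusted p of 0.074, and its missense allele cannot be checked by level.

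One wild-type library stood furthest apart in these genes. Wild type replicate 3 was the lowest of the 3 wild-type libraries in 35 of the 36 genes (97.2%), against 52% of all genes tested, and wild type replicate 1 was the highest in 34 (94.4%), against 47.5% of all genes. The summed level of the 36 genes ran between 2448 and 2991 TPM in the 9 mutant libraries, against 2917, 2486 and 2034 TPM in wild type replicates 1, 2 and 3. The median of the 36 genes in wild type replicate 3 was -0.47 on the log2 scale relative to the other 2 wild-type libraries, where the median of all genes was -0.08. Length moved with this: 28 of the 36 genes are among the longest 20% of genes tested, and those genes had a median of -0.22 in this library, against 0.04 for the shortest 20%. Its part in the results was not tested beyond the values given with and without this library. A fit without it, and a fit that removes each library's trend with gene length, are named below at the members whose calls they change. The 36 genes also moved together in mutant libraries. Emg1 cKO replicate 1 was the lowest of its genotype in 30 (83.3%, against 33.9% of all genes). Emg1 cKO replicate 3 was the highest in 29 (80.6%, against 37.4%). Their medians were -0.17 and 0.18, where the longest 20% of genes had 0.04 and -0.00. Beta-catenin cKO replicate 2 was the lowest in 28 (77.8%, against 37.2%). Vangl2 Lp/Lp replicate 3 was the highest in 26 (72.2%, against 38.3%). Vangl2 Lp/Lp replicate 1 was the lowest in 23 (63.9%, against 37.6%) and the highest in 9 (25%, against 34.3%). Its median was -0.18, where the longest 20% of genes had -0.01. The cause was not tested.

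**Figure D1:**
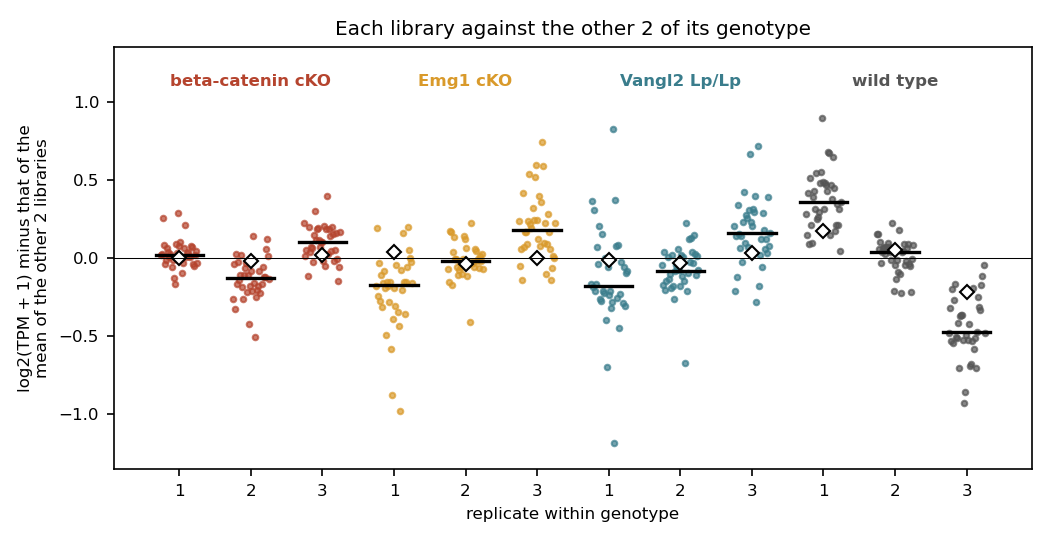
Each of the 12 libraries against the mean of the other 2 libraries of its genotype, as the difference in log2(TPM + 1); each point is 1 of the 36 genes, the bar their median and the diamond the median of the longest 20% of all genes tested. The points of wild type replicate 3 lie lowest, with a median of -0.47, and those of wild type replicate 1 highest, with a median of 0.36.

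In the mutants, few of the 36 genes were called against wild type in the fit of 12 libraries. In beta-catenin cKO 3 were higher (8.33%, where 7.48% of all genes tested were higher) and 1 was lower (2.78%, against 6.99% of all genes). In Emg1 cKO 2 were higher (5.56%, against 11.3%) and 3 lower (8.33%, against 10.4%). In Vangl2 Lp/Lp 2 were higher (5.56%, against 5.45%) and 1 lower (2.78%, against 3.34%). For the 36 genes the median log2 fold change was 0.09 for beta-catenin cKO, -0.05 for Emg1 cKO and 0.05 for Vangl2 Lp/Lp, where the median of all genes was 0.00 in each. The sign of these medians depended on single wild-type libraries: they were -0.01, -0.16 and -0.06 with wild type replicate 3 left out, and 0.20, 0.07 and 0.17 with wild type replicate 1 left out. In this fit the shares of the 36 genes called were near those of all genes or under them, and most log2 fold changes were small: 35, 33 and 33 of the 36 were within 0.5 of 0 in the 3 comparisons. Without wild type replicate 3 the counts in Emg1 cKO became 2 higher and 10 lower (27.8%), where 8.17% of all genes were lower, and with the length trend removed they became 2 higher and 11 lower (30.6%), where 12.3% were lower. Both settings called 7 of these genes lower: Lama5, Col4a5, Frem2, Postn, Itga3, Itga6 and Itgb5.

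**Figure D2:**
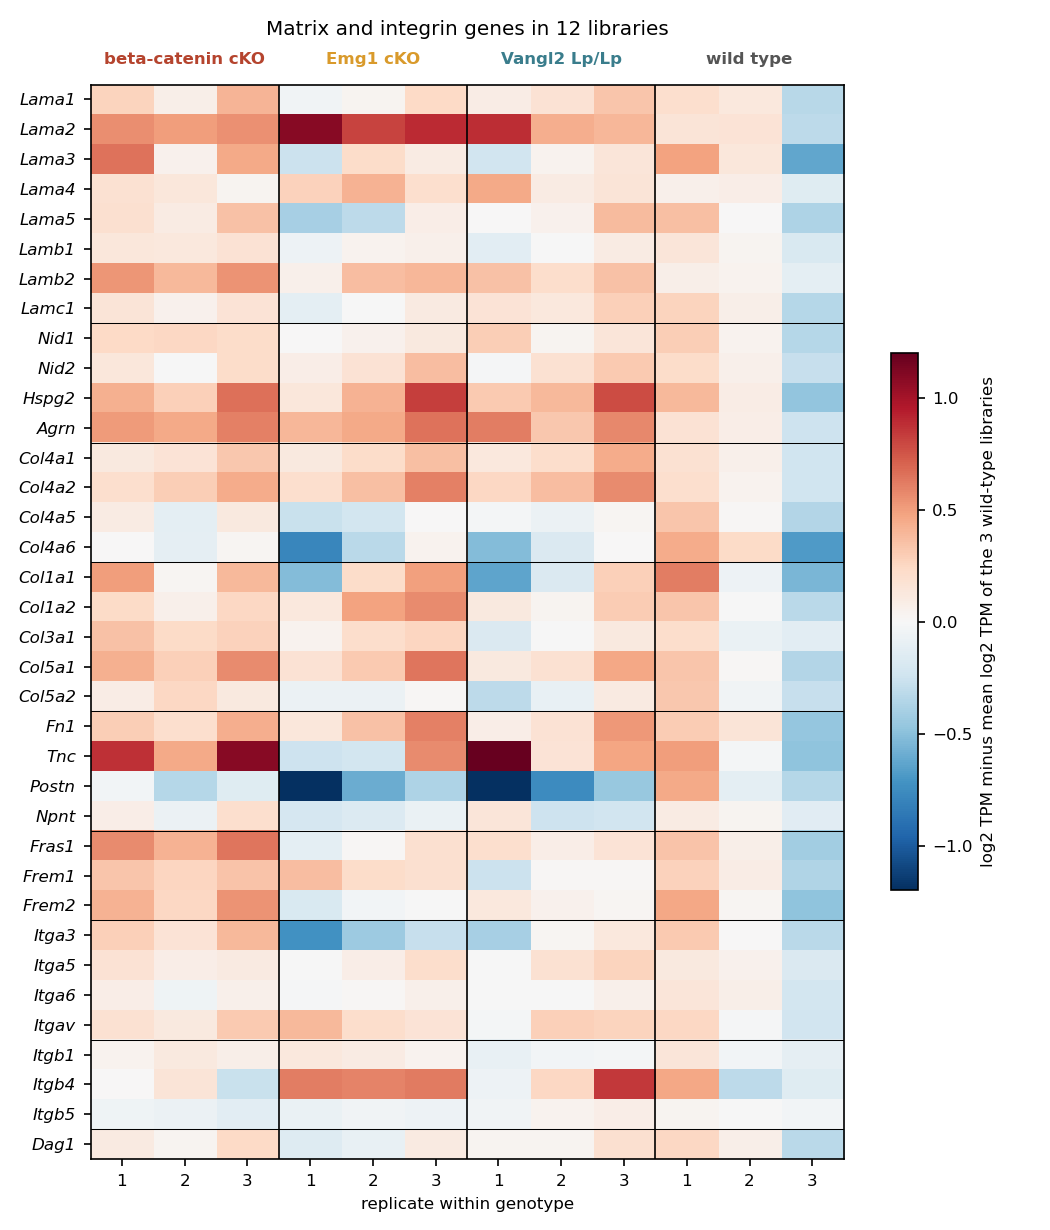
Level of the 36 genes in each library as log2 TPM minus the mean log2 TPM of the 3 wild-type libraries (colour, with values beyond 1.2 in either direction drawn at the end of the scale); columns are replicates 1 to 3 of each genotype and lines part the groups of genes. Agrn and Lama2 are red in all 9 mutant libraries, Postn is blue in the Emg1 cKO and Vangl2 Lp/Lp libraries, and wild type replicate 3 is blue in nearly every gene.

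Levels per length spanned a wide range in wild type. Itgb1, the beta subunit shared by most matrix-binding integrins, had 294 ± 26.8 TPM (SD, n = 3), Col3a1, a chain of fibrillar type III collagen, 274 ± 36.2 TPM, and Fn1, fibronectin, 253 ± 65.6 TPM. These means differed by less than the largest of their SDs, so their order is not resolved. Col4a1 followed at 174 ± 25.6 TPM. At the low end stood Lama2 at 2.19 ± 0.386 TPM, Lama3 at 1.49 ± 0.538 TPM and Itgb4 at 0.798 ± 0.237 TPM. The summed reads over the 12 libraries were 449081 for Fn1 and 869 for Itgb4, the fewest of the 36. The SE of the log2 fold changes of Itgb4 was 0.25 to 0.26.

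Laminins are considered first. Lama2 encodes the alpha chain of merosin, the laminin of muscle and peripheral nerve basement membranes. It lies at chr10:26980036-27619758 on mm10. It had 3.18, 3.06 and 3.16 TPM in beta-catenin cKO, 4.62, 3.79 and 4.03 TPM in Emg1 cKO, and 4.01, 2.93 and 2.86 TPM in Vangl2 Lp/Lp, against 2.41, 2.42 and 1.74 TPM in wild type. All 9 mutant libraries were above all 3 wild-type libraries, and the Emg1 cKO and beta-catenin cKO libraries did not overlap. Lama2 rose by 0.81 ± 0.13 (log2, SE) in Emg1 cKO, a 1.75-fold change with an adjusted p of 0.00066. It rose by 0.50 ± 0.13 in Vangl2 Lp/Lp, with an adjusted p of 0.031. In beta-catenin cKO the value was 0.41 ± 0.14, with an adjusted p of 0.053. Lama2 was called there by DESeq2's Wald test (0.42, adjusted p 0.021) and in the fit of the 2 genotypes alone (0.42, adjusted p 0.032). The replicate block, library totals alone and 2 other filters on low counts called it too. Other alternatives did not, among them leaving out wild type replicate 3 (0.30, adjusted p 0.2) and removing the length trend (0.27, adjusted p 0.13). The call in Emg1 cKO held under each of 16 alternatives. The Vangl2 Lp/Lp call was lost under 5 of them: a fit without wild type replicate 3 (0.39, adjusted p 0.12), a fit without Vangl2 Lp/Lp replicate 1, the highest of its group, a fit of the 2 genotypes alone, and limma on log2 TPM with either pseudocount.

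Lamb2 encodes the beta chain that replaces that of Lamb1 in synaptic and kidney basement membranes, and lies at chr9:108479736-108490530. Its level was 46, 41.7 and 46.2 TPM in beta-catenin cKO, 33.2, 41.2 and 41.8 TPM in Emg1 cKO, and 40.6, 36.9 and 40.5 TPM in Vangl2 Lp/Lp, against 33.3, 32.8 and 29.4 TPM in wild type. The beta-catenin cKO and Vangl2 Lp/Lp libraries lay above all wild-type libraries, while Emg1 cKO replicate 1 lay inside the wild-type range. Lamb2 rose by 0.38 ± 0.08 in beta-catenin cKO, a 1.3-fold change with an adjusted p of 0.006. The values were 0.17 ± 0.08 in Emg1 cKO (adjusted p 0.15) and 0.22 ± 0.08 in Vangl2 Lp/Lp (adjusted p 0.096). Between mutants the difference was not called: beta-catenin cKO over Emg1 cKO gave 0.21 ± 0.08, with an adjusted p of 0.19. Without Emg1 cKO replicate 1, Lamb2 in Emg1 cKO was 0.27 with an adjusted p of 0.0088.

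The other 6 laminin chains were not called in any mutant in the fit of 12 libraries. Lamb1, the broadly used beta chain, had log2 fold changes of 0.03, -0.11 and -0.09 in the 3 mutants, in the order beta-catenin cKO, Emg1 cKO, Vangl2 Lp/Lp, with SEs of 0.06. With the length trend removed, Lamb1 was called in Emg1 cKO at -0.20 (adjusted p 0.014). Lamc1, the gamma chain of most laminins, had -0.00, -0.13 and 0.09, and in Emg1 cKO it was called at -0.26 (adjusted p 0.021) when wild type replicate 3 was left out. Lama1, the alpha chain of the early embryo, had 0.13, -0.05 and 0.11. Lama5 is the alpha chain that epithelia use as they mature. Its level was 26.4, 24.8 and 29.5 TPM in beta-catenin cKO, 17.6, 18.6 and 24.5 TPM in Emg1 cKO, and 23.2, 24 and 30.1 TPM in Vangl2 Lp/Lp, against 29.8, 23.3 and 17.9 TPM in wild type. The wild-type libraries spanned nearly the whole range of the mutants. In Emg1 cKO the log2 fold change of Lama5 was -0.34 ± 0.14 with an adjusted p of 0.11. It was -0.47 ± 0.14 with an adjusted p of 0.028 without wild type replicate 3, and -0.44 ± 0.12 with an adjusted p of 0.017 with the length trend removed. Lama3, the alpha chain of epidermal laminin, and Lama4, that of vessel and mesenchymal laminin, had adjusted p of 0.17 or more in each mutant.

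Ratios between the TPM of chains within a library were compared as well. They were chosen after the values were seen. 27 comparisons of 9 ratios were made, and an exact permutation test of 3 against 3 libraries cannot go under p = 0.1, two-sided. For the comparisons at that limit the exact permutation test gave an adjusted p of 0.27 over the 27. Lama2 made up 3.41, 3.62 and 3.18% of the summed TPM of the 5 alpha chains in beta-catenin cKO, 6, 4.67 and 4.44% of it in Emg1 cKO, and 4.58, 3.41 and 2.91% of it in Vangl2 Lp/Lp, against 2.6, 2.9 and 2.75% in wild type. The 9 mutant shares were all above the 3 wild-type shares, by little in Vangl2 Lp/Lp replicate 3 (exact permutation p = 0.1 in each). Lama5 made up 22.9, 23 and 26.9% in Emg1 cKO, against 32.2, 28 and 28.3% in wild type, with no overlap (exact permutation p = 0.1). In beta-catenin cKO and Vangl2 Lp/Lp its share overlapped that of wild type. The ratio of Lamb2 to Lamb1 averaged 0.596 ± 0.0283 in beta-catenin cKO, 0.566 ± 0.0464 in Emg1 cKO and 0.587 ± 0.0583 in Vangl2 Lp/Lp, against 0.471 ± 0.0235 in wild type (SD, n = 3 each; exact permutation p = 0.1 in each). No mutant library overlapped wild type in this ratio.

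Among the linkers, Agrn was called in all 3 mutants. It encodes agrin, a heparan sulfate proteoglycan that binds laminin and dystroglycan and, at the synapse, clusters acetylcholine receptors. It lies at chr4:156165290-156197488. Its level was 115, 110 and 122 TPM in beta-catenin cKO, 106, 110 and 126 TPM in Emg1 cKO, and 123, 101 and 120 TPM in Vangl2 Lp/Lp, against 90.9, 84.8 and 67.6 TPM in wild type. The lowest mutant library, at 101 TPM, stood above the highest wild-type library, and the 3 mutants overlapped each other. Agrn rose by 0.40 ± 0.09 (adjusted p 0.0072) in beta-catenin cKO, by 0.38 ± 0.09 (adjusted p 0.006) in Emg1 cKO, and by 0.42 ± 0.09 (adjusted p 0.0082) in Vangl2 Lp/Lp. Between mutants its differences were 0.02, -0.02 and -0.04, with SEs of 0.09. Each of the 3 calls against wild type held under all 16 alternatives. With wild type replicate 3 left out the values were 0.32, 0.30 and 0.34, with adjusted p of 0.028, 0.024 and 0.03.

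Hspg2, which encodes the proteoglycan perlecan, was not called. Its level averaged 61.1 ± 8.29 TPM in beta-catenin cKO, 62.1 ± 15.2 TPM in Emg1 cKO and 62.9 ± 11.4 TPM in Vangl2 Lp/Lp, against 45.6 ± 13.1 TPM in wild type (SD, n = 3 each). The log2 fold changes were 0.32, 0.34 and 0.39 with SEs of 0.18, and the adjusted p were 0.25, 0.2 and 0.19. Wild type was at 57.9, 46.9 and 31.8 TPM in replicates 1, 2 and 3, and leaving out replicate 3 gave 0.15, 0.16 and 0.22 with SEs of 0.17. Nid1 and Nid2, the nidogens that tie laminin to type IV collagen, lay between -0.08 and 0.11 in the 3 comparisons and were not called.

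The plot of levels by library shows the members with called changes and the spread of Tnc.

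**Figure D3:**
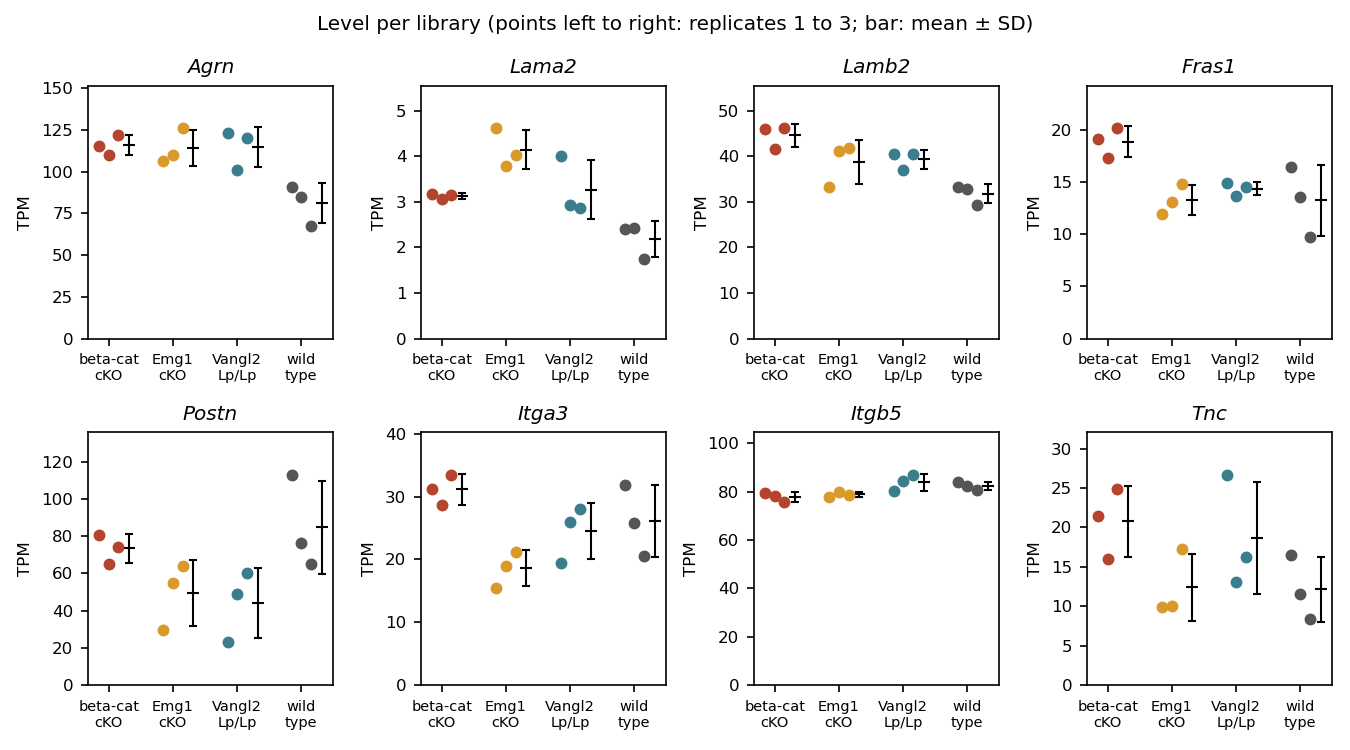
Level in TPM of 8 genes in each library, with the 3 mutants left of wild type; points are replicates 1 to 3 from left to right and the bar is the mean ± SD of 3 libraries. Agrn and Lama2 lie above wild type in all 9 mutant libraries, Itga3 is lowest in Emg1 cKO, and Postn and Tnc spread widely within genotypes.

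The type IV collagens had no called member in any mutant. Col4a1 and Col4a2 encode the chains of the most widespread type IV collagen and are read in opposite directions from starts that overlap by 22 bases, in the window printed above. Col4a2 had 121, 129 and 143 TPM in beta-catenin cKO, 121, 135 and 160 TPM in Emg1 cKO, and 125, 136 and 156 TPM in Vangl2 Lp/Lp, against 121, 108 and 88.8 TPM in wild type. To 3 digits beta-catenin cKO and Emg1 cKO replicate 1 stood level with the highest wild-type library, and the other mutant libraries lay above it. The log2 fold changes were 0.20 ± 0.10, 0.28 ± 0.10 and 0.31 ± 0.10, with adjusted p of 0.21, 0.069 and 0.076. By DESeq2's Wald test Col4a2 was called in Emg1 cKO (adjusted p 0.033) and in Vangl2 Lp/Lp (adjusted p 0.026). Without wild type replicate 3 the edgeR values were 0.13, 0.20 and 0.23, with adjusted p of 0.51, 0.23 and 0.22. Col4a1 had 0.08, 0.11 and 0.17, with adjusted p of 0.26 or more.

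The ratio of Col4a2 to Col4a1 varied little among wild-type libraries. It was 0.645, 0.67 and 0.662 in beta-catenin cKO, 0.647, 0.671 and 0.722 among Emg1 cKO libraries, and 0.662, 0.682 and 0.662 in Vangl2 Lp/Lp, against 0.615, 0.596 and 0.607 in wild type. All 9 mutant ratios lay above the 3 wild-type ratios (exact permutation p = 0.1 in each mutant, adjusted p 0.27), and the ratio of wild type replicate 3 was between those of the other wild-type libraries.

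Col4a5 and Col4a6 encode chains of a type IV collagen of specialised basement membranes and are likewise read in opposite directions on chromosome X, from starts 1309 bases apart. Col4a5 had 33.6, 29 and 34 TPM in beta-catenin cKO, 26.2, 26.9 and 31.6 TPM in Emg1 cKO, and 30.9, 29.9 and 32 TPM in Vangl2 Lp/Lp, against 39.7, 31.8 and 24.6 TPM in wild type. All groups overlapped the wild-type range. In Emg1 cKO the log2 fold change was -0.29 ± 0.11 for Col4a5 (adjusted p 0.073) and -0.49 ± 0.22 for Col4a6 (adjusted p 0.13). Leaving out wild type replicate 3 gave -0.42 ± 0.09 (adjusted p 0.0072) and -0.73 ± 0.18 (adjusted p 0.012). With the length trend removed Col4a5 was -0.34 with an adjusted p of 0.021 and Col4a6 was -0.54 with an adjusted p of 0.065.

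No fibrillar collagen was called in the fit of 12 libraries. Col1a1 and Col1a2 encode the chains of type I collagen, and Col5a1 and Col5a2 chains of type V collagen, which starts type I fibrils. Col1a1 spread widely within genotypes, with 150, 107 and 138 TPM in beta-catenin cKO, 73.8, 123 and 149 TPM in Emg1 cKO, and 68.3, 93.6 and 129 TPM in Vangl2 Lp/Lp, against 162, 101 and 72 TPM in wild type. The groups overlapped throughout, and its SE was 0.27 in each comparison. The smallest adjusted p of the 5 genes was 0.18 in beta-catenin cKO (Col3a1, 0.17 ± 0.08), 0.13 in Emg1 cKO (Col1a2, 0.27 ± 0.12) and 0.3 in Vangl2 Lp/Lp (Col5a2, -0.19 ± 0.11). Without wild type replicate 1, the highest wild-type library, Col5a1 was called at 0.45 in beta-catenin cKO (adjusted p 0.037) and at 0.40 in Emg1 cKO (adjusted p 0.043), and Col1a2 at 0.42 in Emg1 cKO (adjusted p 0.02). Col1a2 was also called there without Emg1 cKO replicate 1, at 0.39 with an adjusted p of 0.032. With the length trend removed Col5a2 was called lower in Emg1 cKO, at -0.26 with an adjusted p of 0.048.

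Postn encodes periostin, a matricellular protein of mesenchyme that binds integrins and collagen, and lies at chr3:54361109-54391037. It had 80.7, 65.1 and 74.3 TPM in beta-catenin cKO, 29.5, 54.6 and 63.7 TPM in Emg1 cKO, and 23.3, 48.7 and 59.9 TPM in Vangl2 Lp/Lp, against 113, 76 and 65 TPM in wild type. The libraries of Emg1 cKO and Vangl2 Lp/Lp lay under all wild-type libraries, by a small margin for Emg1 cKO replicate 3, while beta-catenin cKO overlapped wild type. Postn fell by 0.89 ± 0.29 in Emg1 cKO, or 1.85-fold, with an adjusted p of 0.04, and by 1.02 ± 0.29 in Vangl2 Lp/Lp, or 2.03-fold, with an adjusted p of 0.04. In beta-catenin cKO the value was -0.31 ± 0.29 with an adjusted p of 0.51. The mutants were not shown to differ: beta-catenin cKO over Emg1 cKO was 0.58 ± 0.29 (adjusted p 0.36) and beta-catenin cKO over Vangl2 Lp/Lp was 0.71 ± 0.29 (adjusted p 0.25). The 2 calls were each lost under 7 of 16 alternatives. Both were lost without wild type replicate 1 or 2, without replicate 1 or 2 of the mutant, and under limma with either pseudocount. The remaining loss was under DESeq2's Wald test for Emg1 cKO and in the fit of the 2 genotypes alone for Vangl2 Lp/Lp. The adjusted p was at most 0.14 in Emg1 cKO and 0.12 in Vangl2 Lp/Lp. Replicate 1, at 29.5 TPM in Emg1 cKO and 23.3 TPM in Vangl2 Lp/Lp, was the lowest of its group.

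Tnc, Fn1 and Npnt completed this group. Tnc encodes tenascin C, which modulates adhesion to fibronectin. It had 21.4, 16 and 24.9 TPM in beta-catenin cKO, 9.85, 10 and 17.3 TPM in Emg1 cKO, and 26.7, 13.1 and 16.2 TPM in Vangl2 Lp/Lp, against 16.5, 11.5 and 8.37 TPM in wild type. 2 of the 3 beta-catenin cKO libraries were above all wild-type libraries, and the groups overlapped. Its log2 fold change was 0.68 ± 0.27 in beta-catenin cKO with an adjusted p of 0.1, and without wild type replicate 1 it was 0.93 with an adjusted p of 0.044. Fn1 averaged 307 ± 25.5 TPM in beta-catenin cKO, 319 ± 52.6 TPM in Emg1 cKO and 297 ± 50.2 TPM in Vangl2 Lp/Lp, against 253 ± 65.6 TPM in wild type (SD, n = 3 each), and its adjusted p were 0.46, 0.3 and 0.55. Npnt, nephronectin, a ligand of integrins on epithelial basement membranes, had -0.27 ± 0.10 in Emg1 cKO with an adjusted p of 0.063. It was called there by DESeq2's Wald test (-0.26, adjusted p 0.042), in the fit of the 2 genotypes alone (-0.26, adjusted p 0.04) and with the length trend removed (-0.29, adjusted p 0.038). In Vangl2 Lp/Lp it was called without Vangl2 Lp/Lp replicate 1, at -0.32 with an adjusted p of 0.04.

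Fras1, Frem1 and Frem2 encode the Fraser complex, which anchors embryonic epidermis to the underlying mesenchyme. Fras1 lies at chr5:96373955-96784728. It had 19.2, 17.3 and 20.2 TPM in beta-catenin cKO, 12, 13.1 and 14.8 TPM in Emg1 cKO, and 14.9, 13.7 and 14.5 TPM in Vangl2 Lp/Lp, against 16.5, 13.6 and 9.74 TPM in wild type. The beta-catenin cKO libraries were above all the others, and Emg1 cKO and Vangl2 Lp/Lp lay inside the wild-type range. Fras1 rose by 0.40 ± 0.12 in beta-catenin cKO with an adjusted p of 0.033. The call was lost under 5 of 16 alternatives: leaving out beta-catenin cKO replicate 1 or 3 or wild type replicate 2 or 3, and a fit of the 2 genotypes alone. With wild type replicate 3 left out the value was 0.25 ± 0.09 with an adjusted p of 0.098. Fras1 was 0.51 ± 0.12 higher in beta-catenin cKO than in Emg1 cKO, with an adjusted p of 0.028. Wild-type levels do not enter that difference, though the wild-type libraries share in its estimate of spread. 6 of 16 alternatives lost that call, with an adjusted p of at most 0.13. With the length trend removed Fras1 was -0.27 in Emg1 cKO over wild type, with an adjusted p of 0.029.

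Frem2 had 23.6, 21 and 25.7 TPM in beta-catenin cKO, 15.6, 17.3 and 17.6 TPM in Emg1 cKO, and 19.3, 18.3 and 18 TPM in Vangl2 Lp/Lp, against 24.4, 17.9 and 12.6 TPM in wild type. The 3 mutants did not overlap each other, and each overlapped wild type. Beta-catenin cKO over Emg1 cKO was 0.48 ± 0.14 with an adjusted p of 0.076, and 0.50 with an adjusted p of 0.016 with the length trend removed. In Emg1 cKO over wild type Frem2 was -0.22 ± 0.14 (adjusted p 0.27), and -0.41 ± 0.10 without wild type replicate 3 (adjusted p 0.015) and -0.34 with the length trend removed (adjusted p 0.033). In beta-catenin cKO it was called at 0.49 without wild type replicate 1 (adjusted p 0.009). Frem1 had 0.19, 0.13 and -0.16 in the 3 mutants and did not pass the threshold. It was -0.29 in Vangl2 Lp/Lp without wild type replicate 3, with an adjusted p of 0.047, and -0.26 with the length trend removed, with an adjusted p of 0.044. Removing that trend also called Frem1 (0.33, adjusted p 0.021) and Fras1 (0.34, adjusted p 0.03) higher in beta-catenin cKO than in Vangl2 Lp/Lp.

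Of the integrin alpha subunits 1 was called in the fit of 12 libraries. Itga3 encodes the alpha subunit of a laminin receptor of epithelia and lies at chr11:95044474-95076801. It had 31.2, 28.7 and 33.5 TPM in beta-catenin cKO, 15.5, 19 and 21.2 TPM in Emg1 cKO, and 19.5, 26 and 28 TPM in Vangl2 Lp/Lp, against 31.9, 25.8 and 20.5 TPM in wild type. 2 of the 3 Emg1 cKO libraries were under all wild-type libraries, and the third lay just above wild type replicate 3. Itga3 fell by 0.60 ± 0.14 in Emg1 cKO, or 1.51-fold, with an adjusted p of 0.0079, and by 0.71 ± 0.14 with an adjusted p of 0.0039 without wild type replicate 3. It was 0.75 ± 0.14 higher in beta-catenin cKO than in Emg1 cKO, or 1.68-fold, with an adjusted p of 0.0089 and no overlap of libraries. That call held under all 16 alternatives, with log2 values between 0.64 and 0.86, while the call in Emg1 cKO against wild type was lost only under limma on log2 TPM, with either pseudocount. Vangl2 Lp/Lp had -0.16 ± 0.14 against wild type, with an adjusted p of 0.51.

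The other 3 alpha subunits were not called. Itga5, the fibronectin receptor subunit, had log2 fold changes of 0.01, -0.02 and 0.07 with SEs of 0.07. Itga6, a laminin receptor subunit of epithelia and neural progenitors, had -0.08, -0.10 and -0.07, and Itgav, which pairs with several beta subunits to bind fibronectin and vitronectin, had 0.09, 0.13 and 0.09. In Emg1 cKO Itga6 was called at -0.17 without wild type replicate 3 (adjusted p 0.039) and at -0.18 with the length trend removed (adjusted p 0.014).

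Among the beta subunits, Itgb5, which pairs with the product of Itgav, lies at chr16:33829665-33949153. It had 79.5, 78.3 and 75.7 TPM in beta-catenin cKO, 78, 79.9 and 78.8 TPM in Emg1 cKO, and 80.2, 84.6 and 87.1 TPM in Vangl2 Lp/Lp, against 84.2, 82.3 and 80.8 TPM in wild type. The beta-catenin cKO and Emg1 cKO libraries lay just under all wild-type libraries. Itgb5 fell by 0.20 ± 0.05 in beta-catenin cKO, or 1.15-fold, with an adjusted p of 0.019, and by 0.18 ± 0.05 in Emg1 cKO, or 1.14-fold, with an adjusted p of 0.018. These changes were the smallest called and depended on scaling: with library totals alone, and with limma on log2 TPM, neither was called. Each call was lost under 4 of 16 alternatives, the fourth being the 2 genotypes alone for Emg1 cKO and leaving out replicate 3 of the mutant for beta-catenin cKO. The adjusted p reached 0.24 in beta-catenin cKO and 0.35 in Emg1 cKO. Itgb1 had -0.04, -0.03 and -0.13 with SEs of 0.05 and was not called. Itgb4, the hemidesmosome subunit that pairs with the product of Itga6, had 0.777, 0.863 and 0.647 TPM in beta-catenin cKO, 1.19, 1.17 and 1.2 TPM in Emg1 cKO, and 0.746, 0.922 and 1.4 TPM in Vangl2 Lp/Lp, against 1.07, 0.623 and 0.703 TPM in wild type. The Emg1 cKO libraries were above all wild-type libraries, but the log2 fold change of 0.46 ± 0.25 had an adjusted p of 0.2. Dag1, dystroglycan, the laminin and agrin receptor outside the integrin family, averaged 99.3 ± 7.24 TPM in beta-catenin cKO, 88.3 ± 8.35 TPM in Emg1 cKO and 96.7 ± 6.51 TPM in Vangl2 Lp/Lp, against 91.9 ± 17.7 TPM in wild type (SD, n = 3 each). It was not called, and without wild type replicate 3 it was -0.28 in Emg1 cKO with an adjusted p of 0.023.

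**Figure D4:**
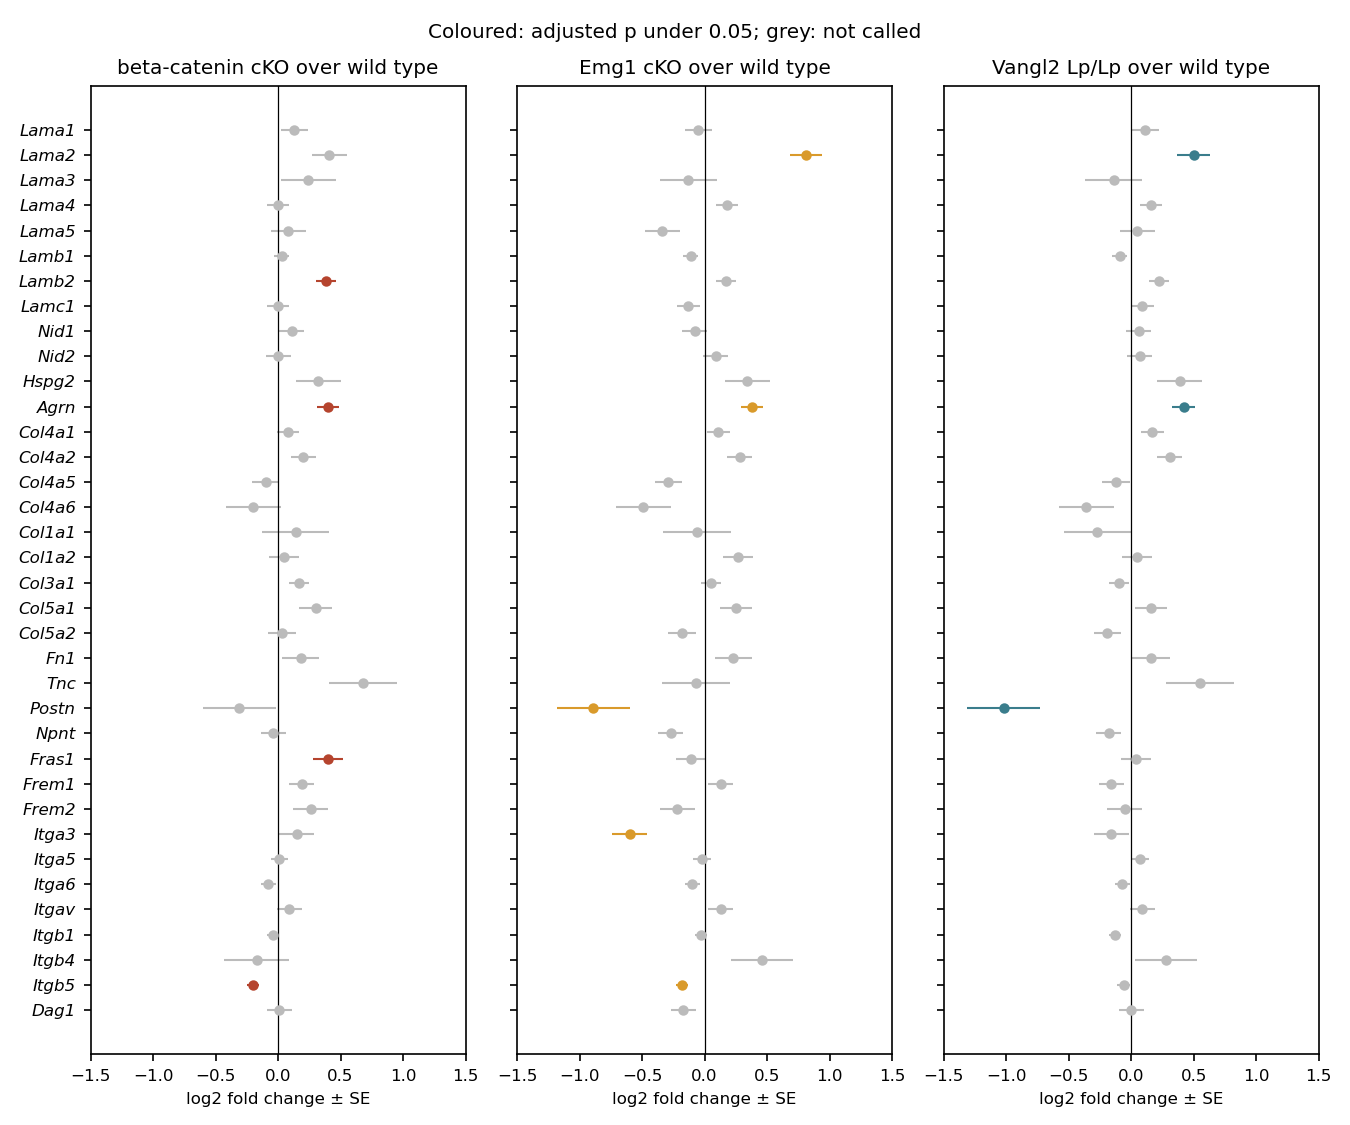
Log2 fold change of each mutant over wild type for the 36 genes, with bars of 1 SE from the fit of 12 libraries; coloured points have an adjusted p under 0.05. Agrn is coloured in all 3 panels, Lama2 and Postn in 2, and most of the 36 points lie within 0.5 of 0.

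Comparisons between mutants do not use the levels of wild type, but its libraries share in the scaling and the estimate of spread. Between beta-catenin cKO and Emg1 cKO 2 of the 36 genes were called, Fras1 and Itga3, both higher in beta-catenin cKO (5.56%, where 3.26% of all genes were called in either direction). Between beta-catenin cKO and Vangl2 Lp/Lp edgeR called 0 (3.87% of all genes), with 7 at an unadjusted p under 0.05, 3 called by DESeq2 (Col3a1, Frem1 and Fras1, all higher in beta-catenin cKO) and 0 by limma. Between Emg1 cKO and Vangl2 Lp/Lp edgeR called 0 (2.83% of all genes), with 7 at an unadjusted p under 0.05, 1 by DESeq2 (Itga3, -0.43, adjusted p 0.041) and 0 by limma. Without Vangl2 Lp/Lp replicate 1, edgeR called 2 between these mutants: Lama2 at 0.48 and Itga3 at -0.57. Fits of the 2 genotypes alone added Frem2 (0.48, adjusted p 0.0041) and Lama2 (-0.39, adjusted p 0.03) in beta-catenin cKO over Emg1 cKO. In beta-catenin cKO over Vangl2 Lp/Lp such a fit called Fras1 (adjusted p 0.0075), Frem1 (0.022), Frem2 (0.03) and Col3a1 (0.049), all higher. The shares of all genes called in those fits are not given here.

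Genes of the same pathways outside the 36 were counted by the same test, and counts below follow the order beta-catenin cKO, Emg1 cKO, Vangl2 Lp/Lp. Each count is read against all genes tested, of which 7.48%, 11.3% and 5.45% rose and 6.99%, 10.4% and 3.34% fell. Of 23 other collagens tested, 9, 13 and 9 rose and the rest were not called. Wild type replicate 3 was the lowest wild-type library in 17 of these 23, and without it 6, 11 and 7 rose, where 5.4%, 8.87% and 3.76% of all genes did. With the length trend removed 7, 12 and 8 rose, against 7.6%, 10.6% and 5.63%. Col2a1, the fibrillar collagen of cartilage and notochord sheath, rose by 0.54 ± 0.06, 0.77 ± 0.06 and 0.56 ± 0.06, with adjusted p of 4.8e-05, 1.5e-06 and 6.5e-05. Col25a1, a transmembrane collagen of neurons, rose by 0.60, 1.05 and 0.48. Of 15 other laminins and basement membrane proteins, 4, 7 and 4 rose. The same library was the lowest of wild type in 12 of the 15, and 4, 4 and 3 rose without it. Lamc3, a further gamma chain, rose by 0.96 ± 0.19, 1.42 ± 0.19 and 1.32 ± 0.19, and Ntn1, the laminin-related guidance cue netrin, by 0.54, 0.53 and 0.44. The member that fell was Col17a1, the hemidesmosome collagen of epidermis, by 1.85 ± 0.28 in beta-catenin cKO and by 0.99 ± 0.26 in Emg1 cKO. Of 12 other integrin subunits, 4, 5 and 3 rose, and 3, 4 and 1 without that library. Itga11, a collagen receptor of mesenchyme, rose by 1.72 ± 0.29, 1.82 ± 0.29 and 2.22 ± 0.29, and Itgb3, which pairs with the product of Itgav, by 0.80, 0.64 and 0.56; the Vangl2 Lp/Lp value was 0.51 with an adjusted p of 0.055 without wild type replicate 3. The difference between these lists and the 36 genes was not tested, and the lists were chosen with earlier results of these data known.

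Of 41 elastic fibre, proteoglycan and matricellular genes, 19, 20 and 9 rose and 2, 2 and 4 fell. Leaving out wild type replicate 3, the lowest in 29 of the 41, gave 16, 18 and 10 that rose, and removing the length trend 19, 19 and 10. Spock2, a testican proteoglycan, rose by 0.51, 0.79 and 0.51. Hapln1, which links hyaluronan to proteoglycans, fell by 0.29 ± 0.08 in beta-catenin cKO, by 0.67 ± 0.08 in Emg1 cKO and by 0.60 ± 0.08 in Vangl2 Lp/Lp. Of 35 matrix enzymes and inhibitors, 8, 10 and 2 rose and 1, 3 and 2 fell; 5, 8 and 2 rose without that library, and 9, 10 and 0 with the length trend removed. P4ha1, a collagen prolyl hydroxylase subunit, fell by 0.48 ± 0.06 in Emg1 cKO, with an adjusted p of 4.7e-05. Of the intracellular partners, 2, 3 and 1 of 23 integrin adaptors rose and 0, 1 and 0 fell. Those that fell became 2, 3 and 0 without wild type replicate 3, the lowest in 20 of the 23, and 4, 4 and 0 with the length trend removed, where 7.96%, 12.3% and 4.57% of all genes fell. Fermt1, the epithelial kindlin that activates integrins, fell by 0.90 ± 0.14 in Emg1 cKO. Of 16 genes of dystroglycan glycosylation and its complex 1 rose in each mutant, Dtna, which encodes alpha-dystrobrevin, by 0.97, 0.76 and 0.83, and 1 fell, B3galnt2, in Emg1 cKO.

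**Figure D5:**
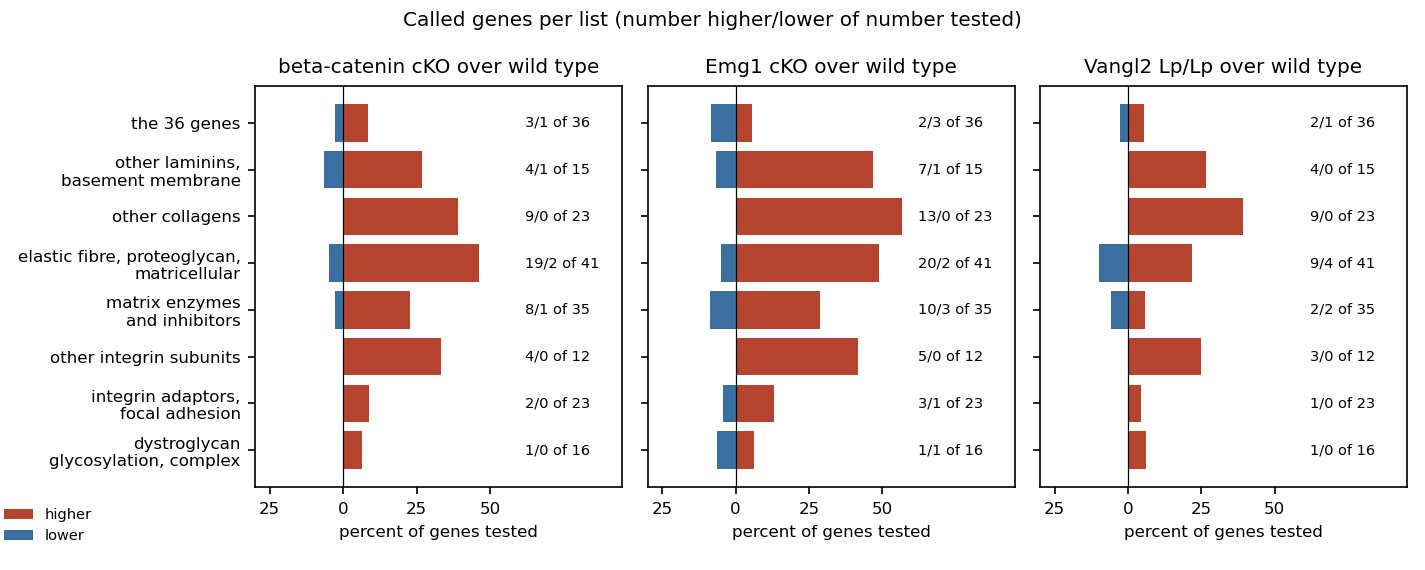
Percent of genes tested that were higher (right of 0) or lower (left of 0) at an adjusted p under 0.05 in each mutant over wild type, for the 36 genes and 7 lists of related genes; the numbers are genes higher, genes lower and genes tested. Other collagens reach 13 of 23 higher in Emg1 cKO, while the 36 genes have 2 higher and 3 lower.

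Markers of cell types in the caudal region moved with the genotypes too, and their part in the matrix results was not tested. The counts are again read against all genes tested, of which 7.48%, 11.3% and 5.45% rose and 6.99%, 10.4% and 3.34% fell. Of 16 surface ectoderm markers, 7 fell in beta-catenin cKO, 14 in Emg1 cKO and 4 in Vangl2 Lp/Lp, and 1 rose, in Emg1 cKO. Their summed level ran between 492 and 528 TPM in beta-catenin cKO, 346 and 453 TPM in Emg1 cKO, and 438 and 526 TPM in Vangl2 Lp/Lp, against 562 to 662 TPM in wild type. These values stand beside those of the epithelial genes Itga3, which fell in Emg1 cKO, and Fras1, which rose in beta-catenin cKO. Of 8 neuron markers 6, 8 and 7 rose, with a summed level between 478 and 494, 685 and 707, and 421 and 758 TPM in the 3 mutants, against 236 to 306 TPM in wild type, and of 8 neural progenitor markers 4, 5 and 6 rose. These stand beside Agrn and Lama2. Of 13 mesenchyme and somite markers 4, 7 and 2 rose, and 2 fell in beta-catenin cKO and 1 in Emg1 cKO, beside Postn and the fibrillar collagens, with summed levels between 920 and 938, 907 and 964, and 758 and 926 TPM, against 793 to 815 TPM in wild type. Of 9 endothelial markers 3 fell in Emg1 cKO and 2 in Vangl2 Lp/Lp, beside Lama4 and Col4a1, and of 7 blood markers tested 6, 6 and 3 fell. Of 7 neural crest markers 4 fell in beta-catenin cKO and 2 in Emg1 cKO. Of 7 notochord and floor plate markers 1 rose in beta-catenin cKO, and of 8 hindgut and nephric duct markers 4, 2 and 2 rose and 1 fell in Emg1 cKO. Counts of blood markers that fell were 4, 4 and 1 without wild type replicate 3, and in the same setting 4 neural progenitor markers rose in Vangl2 Lp/Lp. There 6 surface ectoderm markers fell in beta-catenin cKO, and 1, 3 and 3 endothelial markers fell. Of mesenchyme and somite markers 6 rose in Emg1 cKO and 1 fell in beta-catenin cKO, and 0 hindgut and nephric duct markers fell in Emg1 cKO. Of all genes 5.4%, 8.87% and 3.76% then rose and 4.49%, 8.17% and 2.18% fell. Every marker in these lists had reads in all 12 libraries.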

How the data were processed

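RNA of the caudal region was extracted with a miRNeasy kit and made into libraries with a stranded TruSeq mRNA kit, per the labels' protocols. Trimmomatic 0.39, STAR 2.7.10b and mm10 are named in the submitters' processing notes; no tool that counted reads, no handling of strand and no gene annotation is given in the sources used here, so reads of a gene and of a gene overlapping it on the other strand, such as Col4a1 and Col4a2, may not be separated. The deposited table held, for each library, the log2 of TPM as the authors computed it, with values of 1 TPM or less set to 0, and the expected count of reads per gene that the authors deposited without normalisation. TPM under 1 were rebuilt from the counts.

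The expected counts, rounded to whole numbers, went into edgeR 4.0.16 under R 4.3.3. All 12 libraries were scaled by TMM and fitted jointly (common dispersion 0.00953, prior degrees of freedom 7.19), and genes were tested two-sided by quasi-likelihood F. The filter asked for 1 TPM or more in 3 or more libraries, which kept 17848 genes and left out 35494. All 36 members passed. Alternatives used DESeq2 1.42.0, limma 3.58.1, other scaling and filters, a replicate block and each replicate left out; a fit with a smooth length trend removed per library, and the counts of the other lists in that fit and without wild type replicate 3, were added after the data were seen. On simulated data with 17848 genes, the procedure recovered 67, 73 and 72 of 100 genes changed 1.5-fold and 92, 88 and 94 of 100 changed 2-fold in the 3 comparisons with wild type. It also called 14, 11 and 14 genes that were not changed. The changed genes were drawn from those above a limit of counts, and each gene was simulated independently. The 36 genes moved together within libraries, so this recovery does not describe them as a set.

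The members and the other lists were chosen with earlier results of these data known. Values are given for every member called against wild type; others are given by value or range, with the calls that some of the alternatives add, and in each other list at most 3 called genes with the smallest adjusted p were named per comparison; genes named by it in 1 or 2 comparisons are given in others too. Members shown for their libraries without a call in the fit (Lama5, Col4a2, Col4a5, Col1a1, Tnc, Frem2 and Itgb4) were chosen after their values were seen. Promoters and their coordinates came from RefSeq (GRCm38.p6), and gene positions are those of the table. Software for tables and plots was Python 3.11.15 with matplotlib 3.10.9, scipy 1.17.1, numpy 2.4.6 and pandas 2.3.3.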

Additional observations from a re-analysis of the deposited data

How the results depend on the processing

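With no filter on low counts (32471 genes, where the estimated prior degrees of freedom became infinite) members higher and lower were 9 and 2 in beta-catenin cKO, 7 and 9 in Emg1 cKO, and 5 and 4 for Vangl2 Lp/Lp. Of all genes 5.53%, 7.4% and 4.92% were then higher and 4.91%, 6.32% and 3.17% lower. In the same fit 8, 8 and 7 were called for beta-catenin cKO over Emg1 cKO, beta-catenin cKO over Vangl2 Lp/Lp, and Emg1 cKO over Vangl2 Lp/Lp. There 1.7%, 1.74% and 1.9% of all genes were higher and 2.33%, 2.38% and 1.93% lower. With library totals alone 0 were lower in beta-catenin cKO, where 4.48% of all genes were lower. With limma on log2(TPM + 1), and with 0.1 as the pseudocount, 0 were lower in each mutant, 4 higher in Emg1 cKO, 1 higher in Vangl2 Lp/Lp and 1 called between beta-catenin cKO and Emg1 cKO. With a pseudocount of 1, 2.36%, 3.74% and 1% of all genes were lower and 11.1%, 17% and 5.71% higher. In beta-catenin cKO over Emg1 cKO 0.992% of all genes were then higher and 1.43% lower. With the length trend removed, a choice made after seeing the data, 11 were lower in Emg1 cKO (12.3% of all genes) and 2 lower in Vangl2 Lp/Lp (4.57% of all genes). In that fit 2 were called in beta-catenin cKO over Vangl2 Lp/Lp, where 1.97% of all genes were higher and 2.49% lower. With the 2 genotypes alone 1 was higher and 0 lower in Vangl2 Lp/Lp, and 4 were called between beta-catenin cKO and Emg1 cKO and 4 between beta-catenin cKO and Vangl2 Lp/Lp. The shares of all genes in these fits are not given here. DESeq2 called 3 and 1 between Vangl2 Lp/Lp and beta-catenin cKO or Emg1 cKO. Of all genes it called 2.47% higher and 3.15% lower in beta-catenin cKO over Vangl2 Lp/Lp, and 2.58% and 2.68% in Emg1 cKO over Vangl2 Lp/Lp. The causes were not tested. Leaving out 1 library gave 2 to 6 higher and 0 to 1 lower in beta-catenin cKO, 2 to 5 higher and 2 to 10 lower in Emg1 cKO, 1 to 3 higher and 0 to 2 lower in Vangl2 Lp/Lp, 1 to 3 between beta-catenin cKO and Emg1 cKO, and 0 to 2 between Emg1 cKO and Vangl2 Lp/Lp. The highest came without wild type replicate 1 (6 higher in beta-catenin cKO, adding Col5a1, Frem2 and Tnc) and without wild type replicate 3 (10 lower in Emg1 cKO). In these 2 fits 7.07% of all genes were higher in beta-catenin cKO and 8.17% lower in Emg1 cKO. Without wild type replicate 1, 5 members were higher in Emg1 cKO (11% of all genes) and 3 in Vangl2 Lp/Lp (4.52% of all genes). Without wild type replicate 3, 1 was higher and 2 were lower in Vangl2 Lp/Lp (3.76% and 2.18% of all genes). For the other fits that left out 1 library the shares of all genes are not given here, so their counts have no background. No called member changed sign under any of the 16 alternatives. The replicate block gave 4 higher in beta-catenin cKO, adding Lama2 (0.42, adjusted p 0.032), and changed no other count. The share of all genes called with that block is not given here either. Same-numbered libraries correlated between -0.10 and 0.099 over 18 pairs, 0 of them over 0.1, which gave no sign of pairing by number. Among the members, replicate 3 was the highest of its genotype in 23 in beta-catenin cKO, 29 in Emg1 cKO and 26 in Vangl2 Lp/Lp. In wild type it was the highest in 0. Pairing by number was not tested on the members alone. The TPM scale moved the median of all genes by 0.10, 0.11 and 0.08 in the 3 comparisons. With 3 libraries a genotype and a median SE of 0.11, changes much under 1.5-fold were often not detectable.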
